A study of Mus musculus with 2 samples.

Results

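H19Δ1 and H19Δ2 are sister lines of androgenetic haploid embryonic stem cells (AG-haESCs), and the question here was where in the genome their DNA dosage differed from each other. Neither line was hybridized against the other. Each was hybridized against the same parental line, AGH-OG-3, so the difference was taken through that shared reference: the log2 ratio of a probe on the H19Δ2 array minus the log2 ratio of the same probe on the H19Δ1 array. Of 170305 distinct probes in all, the 161370 that lie on chromosomes 1 to 19 and were measured on both arrays were used. A positive difference means more DNA in H19Δ2, a negative difference means more DNA in H19Δ1.

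AG-haESCs come from androgenetic blastocysts and carry a single paternal set of chromosomes. AGH-OG-3, the haploid parental line, carries an *eGFP* transgene driven by the *Oct4* promoter. Both engineered lines share that transgene and, in addition, the CRISPR-Cas9-assisted deletion of the *H19* transcription unit with its imprinting control region. Each line is 1 clone, expanded through passages and repeated sorting for haploid cells, so a difference between them is one between 2 clones that carry the same deletion. All cells were grown with serum, leukemia inhibitory factor, CHIR99021 and PD0325901, and feeder cells were depleted by letting them settle before DNA was taken. There was 1 array per line, the engineered DNA being labelled with Cy5 and the parental DNA with Cy3, so no test between lines was possible and no p-value is given. Each error is the SD among the probes of a region, which is not the spread that repeated arrays would give.

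Array comparative genomic hybridization lets 2 differently labelled genomic DNAs compete for the same probes, and the ratio of the dyes follows the relative number of copies. In a haploid genome a locus is normally present once per cell, so a deletion leaves nothing to hybridize and a duplication doubles the dose, while a change carried by only some of the cells gives a value in between. Haploid stem cells tend to become diploid in culture and are kept haploid by sorting. The imprinted *H19-Igf2* locus on chromosome 7 is controlled by a region that is methylated on the paternal chromosome, and *H19* is a long non-coding RNA made from the maternal one.

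Taking the difference removes what both arrays share. The SD of the log2 ratio outside the regions described below was 0.13 in each line, and the 2 lines correlated across these probes (Pearson's r = 0.41 over 158379 probes, a description across probes that share reference, probe sequence and slide). The noise of a single probe, estimated from its neighbours, was 0.12 for the difference, whereas 2 unrelated arrays of this quality would have given 0.17. The Cy3 signals gave a limited control, since AGH-OG-3 was in Cy3 on both arrays. Whether both received the same DNA preparation is not given in the sources used here. The control holds 1 dye, so spot effects common to both dyes stay in it but cancel in the ratio. The difference in Cy3 between the arrays had an SD of 0.11. In each channel at least 99.9% of spots stood well above background, and neighbouring probes lay a median of 10845 bp apart. In all, 2729 probes (1.69%) differed by at least 0.5 between the lines. H19Δ2 was higher at 1.46% of the probes and lower at 0.231%. In the Cy3 control, 0.297% of probes differed by as much between the arrays.

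The chromosomes were then cut into segments of even difference, and a segment counted as called when its mean was at least 0.5 in size. Of 107 segments 34 were called (31.8%), against 26 of 191 (13.6%) in the Cy3 control. These shares are not like for like, since the cutting allowed for the noise of each track, 0.12 and 0.09, and the control holds 1 dye. The stretch chr1:27965284-28056197, for instance, differed by -0.77 in Cy3 and by -0.75 in Cy5 but was not called in the ratio. The called segments of the control all had 3 probes, and none had 5 or more. The difference between the lines gave 14 called segments of at least 5 probes. Adjoining segments of the same sign were then joined, which turned all 34 called segments into 27 regions, and the 11 regions that held at least 5 probes are described below. They lay on 9 autosomes, and 10 autosomes had none. The chromosome 9 region is among them only through the joining, since its segments had 4 and 3 probes. The regions held 2991 probes, or 1.85% of the autosomal probes, and 2284 of the probes past 0.5. They spanned 55.0 Mb, of which 46.1 Mb lay on chromosome 12 and 8.86 Mb elsewhere. H19Δ2 was higher in 7 regions that covered 53.9 Mb and lower in 4 that covered 1.01 Mb. Outside the regions, 445 probes (0.281%) passed 0.5.

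**Figure D1:**
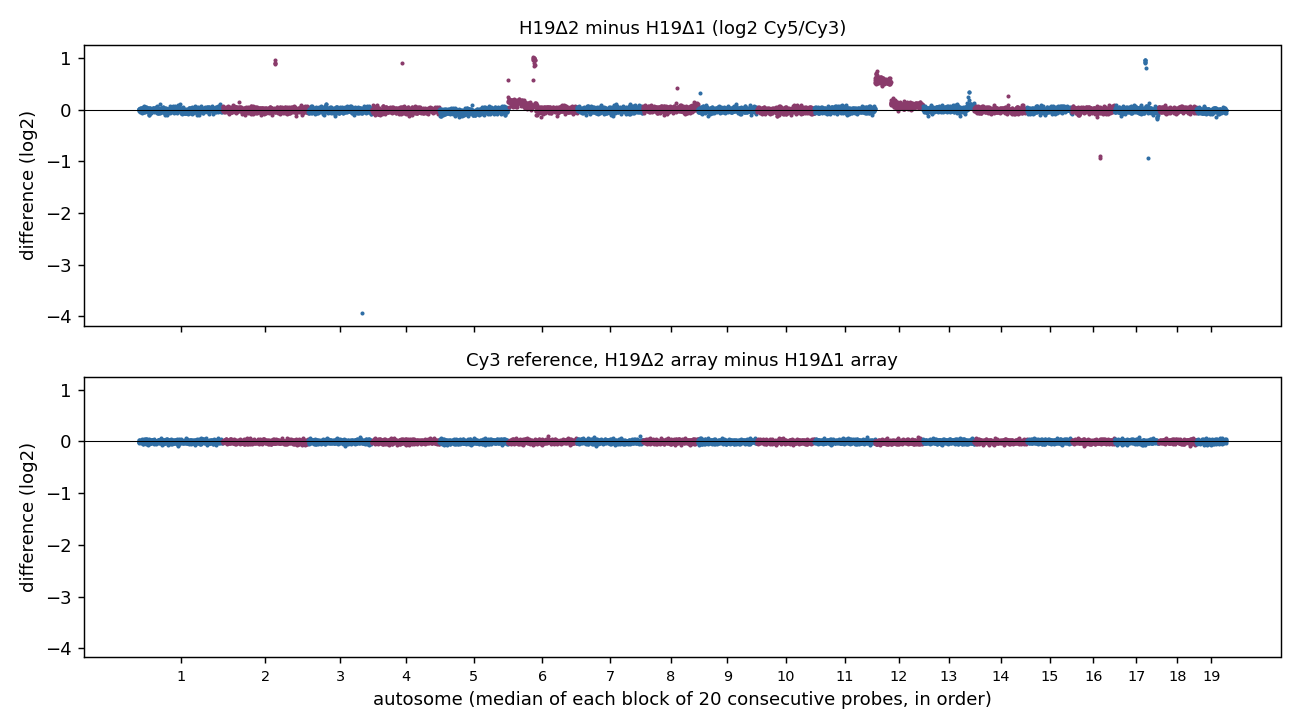
Difference along the autosomes. Each point is the median of 20 consecutive probes on the log2 scale, above for H19Δ2 minus H19Δ1 and below for the Cy3 reference signal of the H19Δ2 array minus that of the H19Δ1 array; the proximal part of chromosome 12 and the regions of chromosomes 2, 3, 4, 6, 16 and 17 are among those that leave the zero line above, while the blocks below stay near it.

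The 11 regions fell into 3 kinds by the level of each line against AGH-OG-3. In 7 regions, covering 7.57 Mb, the lines stood on opposite sides of the parental line. In 2 regions H19Δ1 stood apart and H19Δ2 was at the parental level, and in 2 it was the reverse. The Cy3 signal itself differed little in any of them, with means between -0.06 and 0.04. In 10 of the 11 regions no probe value of one line reached into the range of the other. Since the regions were chosen by these differences, that is a description and not a test.

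**Figure D2:**
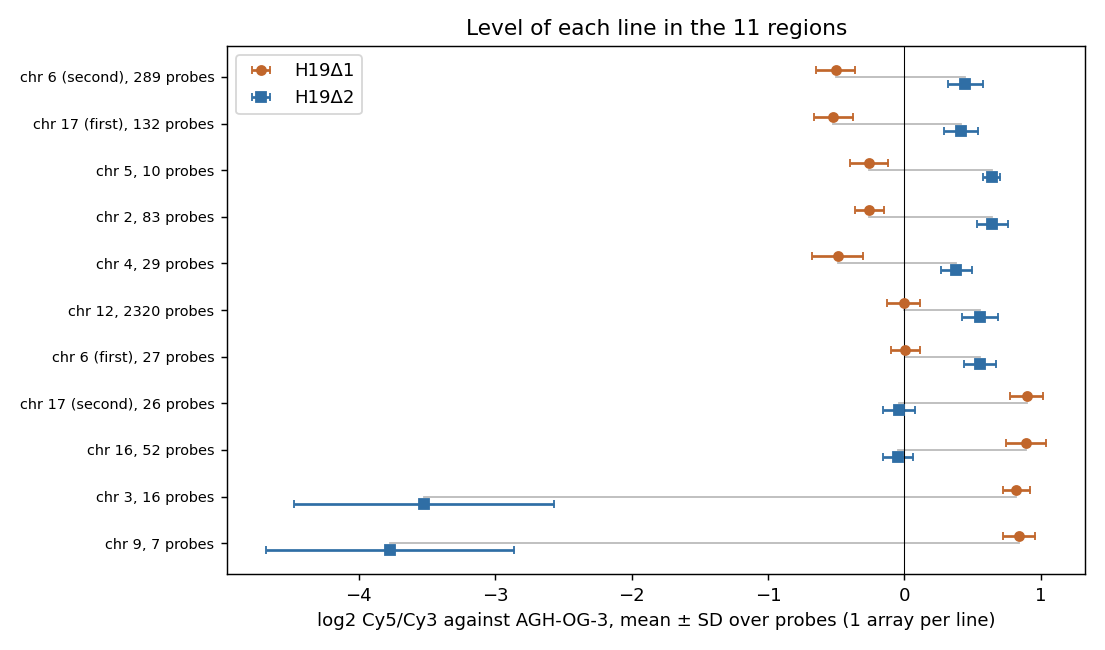
Level of each line in the 11 regions. Points are the mean log2 ratio against AGH-OG-3 (circles H19Δ1, squares H19Δ2) with the SD over the probes of the region, and regions are sorted by their difference; in 7 regions the 2 points lie on either side of zero, and the 2 regions with H19Δ2 near -3.5 and -3.8 have H19Δ1 above 0.8.

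A pair of small regions was nearly gone from H19Δ2 and raised in H19Δ1. On chromosome 3 the region chr3:136446249-136571422 (125 kb, 16 probes) had a mean log2 ratio of 0.82 ± 0.10 in H19Δ1, with every probe between 0.63 and 1.07. In H19Δ2 its mean was -3.52 ± 0.96, with probes between -5.93 and -1.85. The lines differed at all 16 probes, by -4.34 ± 1.00 on average. At 8 of the 16 probes H19Δ2 had no Cy5 well above background, so that the ratio is uncertain there. With such Cy5 raised to a bound, the lowest Cy5 called well above background, the DNA was at least about 13.0-fold more abundant in H19Δ1. The bound is approximate, since the Cy5 of 1 such probe, chr3:136453531-136453590, was not below it. The other 8 probes, measured in both lines, gave a difference of -3.81 ± 0.85, with H19Δ2 between -4.10 and -1.85 and a median of -3.22. The nearest probes outside differed by -0.05 and 0.03, so the change to full size lay within 6.52 kb on the left and 16.3 kb on the right.

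The region on chromosome 9 had the same form. At chr9:100658274-100701368 (43.1 kb, 7 probes) H19Δ1 had a mean of 0.84 ± 0.12 and H19Δ2 a mean of -3.77 ± 0.91. The lowest probe of H19Δ1 was at 0.72 and the highest probe of H19Δ2 at -2.38. At 4 of the 7 probes H19Δ2 had no Cy5 well above background. With these at the same approximate bound, the DNA was at least about 18.6-fold more abundant in H19Δ1. The 3 probes measured in both lines stood at 0.80 in H19Δ1 and -2.99 in H19Δ2, a difference of -3.79 ± 0.69. The flanking probes differed by 0.11 and 0.07, across gaps of 13.0 and 9.29 kb. In both regions H19Δ1 thus held more of the DNA than its parental line, at levels of 0.82 and 0.84 that come close to the 0.89 and 0.90 of the regions raised in H19Δ1 alone, described further on.

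In 5 further regions the order was turned round, with H19Δ2 above AGH-OG-3 and H19Δ1 below it. Their differences lay between 0.87 and 0.95, which is 1.83 to 1.93 times as much DNA in H19Δ2. The levels of the single lines varied more than the differences did: from -0.52 to -0.26 in H19Δ1 and from 0.38 to 0.64 in H19Δ2.

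The widest of the 5 was chr6:55782881-60204117 (4.42 Mb, 289 probes). Its mean log2 ratio was -0.50 ± 0.14 in H19Δ1 and 0.45 ± 0.13 in H19Δ2, a difference of 0.95 ± 0.17. Of its probes, 285 passed 0.5. The highest H19Δ1 probe was at 0.04 and the lowest H19Δ2 probe at 0.07. Within it, a stretch of 17 probes (chr6:57924748-58220474) differed by 0.75 ± 0.20, less than the 172 probes before it (0.97 ± 0.15) and the 100 after it (0.94 ± 0.18). Both lines lay nearer to zero in that stretch, at -0.37 and 0.38.

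The region chr17:65493402-67027256 (1.53 Mb, 132 probes) looked much like it, at -0.52 ± 0.14 in H19Δ1 and 0.42 ± 0.13 in H19Δ2. The difference was 0.94 ± 0.16, and all 132 probes passed 0.5. Similar levels were found at chr4:82064724-82474141 (409 kb, 29 probes), with -0.49 ± 0.19 and 0.38 ± 0.11, with a difference of 0.87 ± 0.16. In these regions of chromosomes 4, 6 and 17 the parental line lay about midway between the H19Δ lines on the log2 scale.

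In the remaining pair the parental line lay closer to H19Δ1. The region chr2:112290454-113249742 (959 kb, 83 probes) had a mean of -0.26 ± 0.11 in H19Δ1 and 0.64 ± 0.11 in H19Δ2, and differed by 0.90 ± 0.14. The region chr5:81801562-81883668 (82.1 kb, 10 probes) had means of -0.26 ± 0.14 and 0.64 ± 0.06 and differed by 0.90 ± 0.12. The 2 regions, on different chromosomes, had the same levels in both lines to 2 decimals. On chromosome 5 the Cy3 signal differed by -0.06 between the arrays, the largest size among the 11 regions, and Cy5 compared directly between the lines, without Cy3, differed by 0.83.

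**Figure D3:**
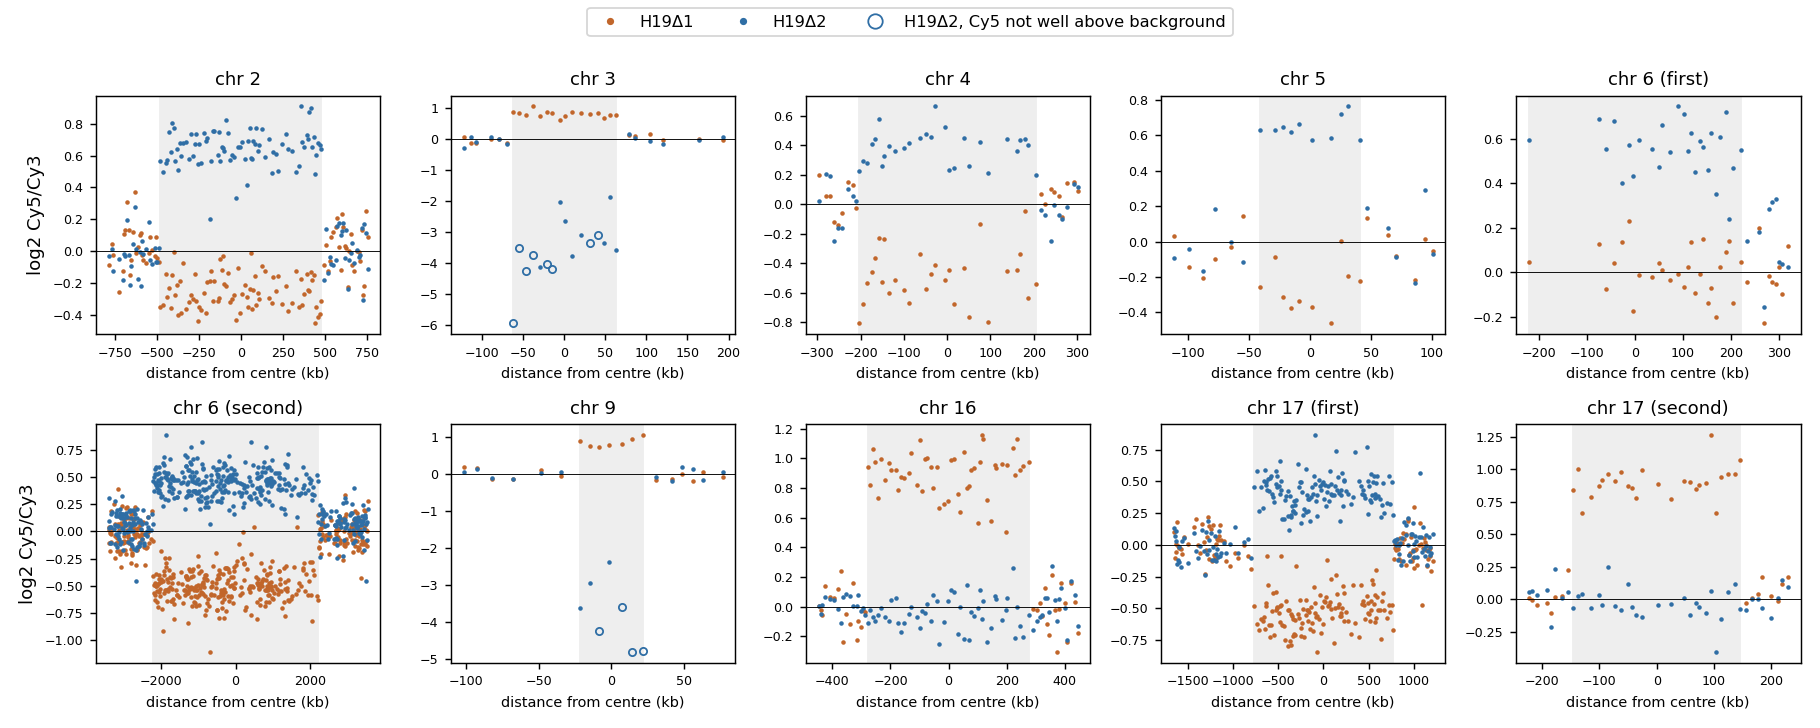
Probes of 10 regions and their surroundings. The log2 ratio of each probe against AGH-OG-3 is plotted against the distance from the centre of the region in kb (orange H19Δ1, blue H19Δ2), the grey band is the region, and open circles are probes where H19Δ2 had no Cy5 well above background; axes differ between panels. Both lines lie near each other outside the bands and part at their borders. On chromosome 6 H19Δ2 stayed higher outside them, by a mean of 0.14 in the segment after the first region. It was higher by 0.07 and 0.09 in the segments before and after the second.

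H19Δ1 alone stood apart from AGH-OG-3 in 2 regions, and it was higher in both. At chr16:59445252-59999697 (554 kb, 52 probes) its mean was 0.89 ± 0.15 and that of H19Δ2 was -0.05 ± 0.11. The difference was -0.94 ± 0.16, or 1.92 times as much DNA in H19Δ1. At chr17:71112826-71404932 (292 kb, 26 probes) the means were 0.90 ± 0.12 and -0.04 ± 0.12, with a difference of -0.94 ± 0.13, or 1.91 times as much DNA in H19Δ1. All 52 and all 26 probes passed 0.5. The lowest H19Δ1 probes of these regions were at 0.50 and 0.66, and the highest H19Δ2 probes at 0.26 and 0.25. Chromosome 17 thus held a pair of called regions of opposite sign, the first higher in H19Δ2 and the second higher in H19Δ1.

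Together with the 5 regions above, 7 of the 11 regions differed by 0.87 to 0.95 in size, that is 1.83 to 1.93 fold, although the level of AGH-OG-3 between the lines was not the same in them. Cy5 compared directly between the lines gave sizes from 0.83 to 0.97 in these 7 regions. Of the 11 regions, 9 had a probe on either side and chromosomes 6 and 12 each had a region starting at the first probe of the chromosome. At the 20 borders that had a probe beyond them, the first probe outside differed by between -0.26 and 0.18, and 19 of the 20 were within 0.2 of zero. The first probe inside was at least 0.50 in size at each of them. The gap between the 2 probes was 6.15 to 37.7 kb with a median of 11.6 kb, which is the distance between neighbouring probes and limits how finely a border can be placed.

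H19Δ2 alone stood apart in the 2 regions that began at the first probe of a chromosome, and in both its level was near 0.55. By far the longest region of all was the proximal part of chromosome 12, chr12:3102541-49199089 (46.1 Mb, 2320 probes, 32.5% of the probes of that chromosome). There the mean log2 ratio was -0.01 ± 0.12 in H19Δ1 and 0.55 ± 0.13 in H19Δ2. The difference was 0.56 ± 0.15, or 1.47 times as much DNA in H19Δ2. This was the only region in which the probes of the lines overlapped, from -0.58 to 0.64 in H19Δ1 and from -0.41 to 0.99 in H19Δ2, and 1625 of its 2320 probes passed 0.5. The Cy3 signal differed by -0.01. The region made up 77.6% of the probes and 83.9% of the length of the 11 regions.

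The difference along chromosome 12 was not even. The first 134 probes differed by 0.56 ± 0.15. The next 121 probes (chr12:4566693-6104440, 1.54 Mb) differed by 0.69 ± 0.13, and the following 2065 probes by 0.55 ± 0.14. After the fall 49.2 Mb along the chromosome the difference did not return to zero at once or in full. It was 0.13 ± 0.14 over 750 probes (chr12:49224557-61346077) and 0.07 ± 0.13 over the last 4069 probes. H19Δ1 stayed between -0.01 and 0.02 in all 5 of these steps, so that each step was one of H19Δ2. Over the whole of the chromosome beyond the region, 4819 probes differed by 0.08 ± 0.14, with a Cy3 difference of 0.00.

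Chromosome 6 had the other such region. At its start, chr6:3131098-3571947 (441 kb, 27 probes) stood at 0.01 ± 0.11 in H19Δ1 and 0.56 ± 0.12 in H19Δ2, a difference of 0.55 ± 0.14, or 1.46 fold. The first probe beyond it differed by 0.18. From there the next 2436 probes, over 36.0 Mb, differed by 0.14 ± 0.14, and the 1247 probes after those, over 16.1 Mb, by 0.07 ± 0.13. The region of opposite levels followed, then 175 probes at 0.09 ± 0.14, and the last 6075 probes were at -0.01 ± 0.14. Outside the region of opposite levels H19Δ1 was between -0.02 and 0.01 in all of these steps, as on chromosome 12. The 2 chromosomes therefore shared a form, a step near 0.55 at the start and a low plateau beyond it in H19Δ2, with very different lengths of the first step.

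**Figure D4:**
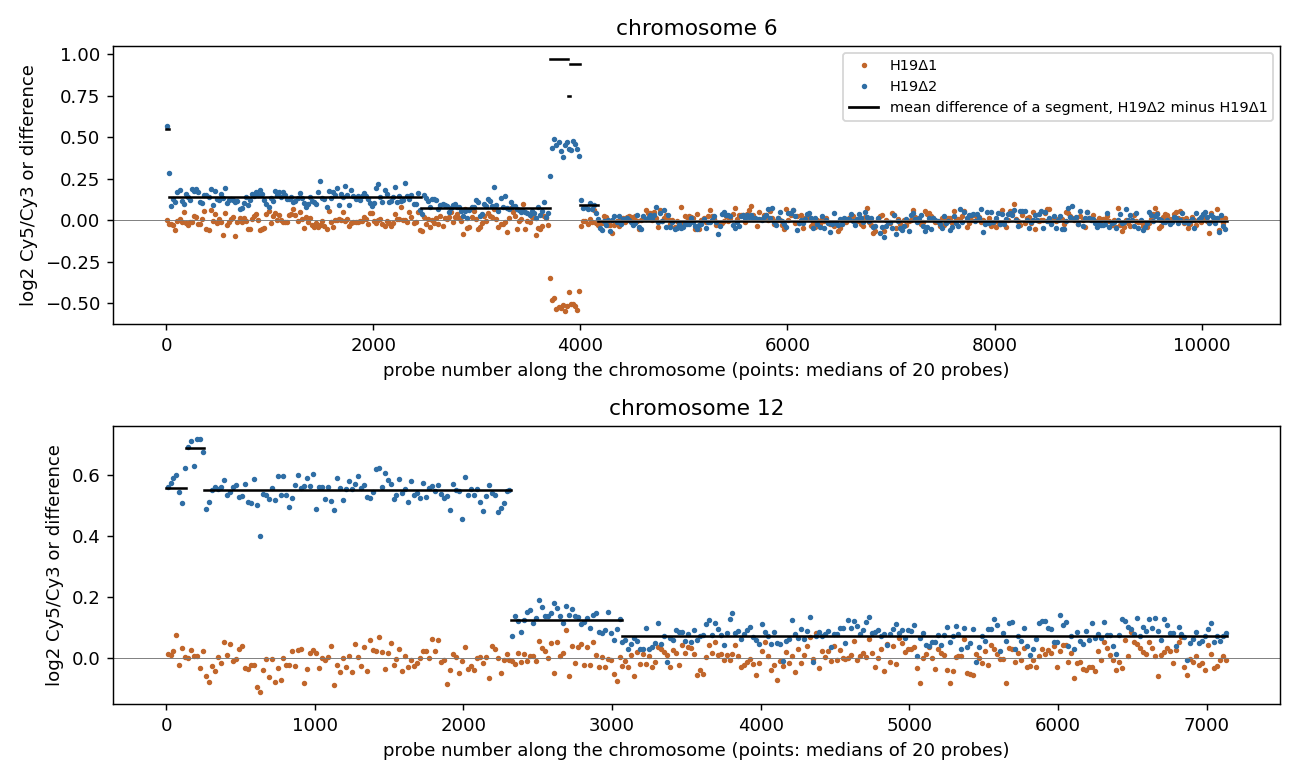
Steps along chromosomes 6 and 12. Points are medians of 20 consecutive probes of the log2 ratio against AGH-OG-3 (orange H19Δ1, blue H19Δ2) by probe number, and black lines are the mean difference, H19Δ2 minus H19Δ1, of each segment. H19Δ2 steps from near 0.55 to 0.13 and 0.07 on chromosome 12 and from near 0.55 to 0.14 and 0.07 on chromosome 6 while H19Δ1 stays at zero, except in the region of opposite levels on chromosome 6.

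Lower shifts were more numerous in the difference than in the Cy3 control. Segments of at least 100 probes with a mean between 0.05 and 0.5 in size numbered 11, of which 9 were higher in H19Δ2, and together they covered 162 Mb. In the Cy3 control the largest mean among segments of at least 100 probes was 0.01. That control holds AGH-OG-3 on both arrays, so it cannot show effects particular to the Cy5 DNA of a line. Besides the 5 on chromosomes 6 and 12, these shifts lay on chromosomes 5, 8, 13 and 16. On chromosome 5 a stretch of 581 probes differed by -0.07 ± 0.13, with H19Δ2 at -0.07. On chromosome 8, 212 and 457 probes near the end differed by 0.07 ± 0.14 and 0.06 ± 0.14, with H19Δ2 at 0.08 and 0.07. On chromosomes 13 and 16 it was H19Δ1 that left zero. There 188 and 799 probes of chromosome 13 were at -0.06 and -0.07 in H19Δ1, and 211 probes of chromosome 16 were at 0.07. With 1 array per line nothing shows how far a repeat array would move these shifts.

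Between those and the called regions stood 8 segments of at least 5 probes with a mean of 0.1 to 0.5 in size, 7 of them higher in H19Δ2 and the plateaus of chromosomes 6 and 12 (0.14 and 0.13) among them, against 2 in the Cy3 control. The limit of 0.1 was chosen after the values were seen. The one nearest to the threshold, chr8:87073437-87177868 (104 kb, 12 probes), differed by 0.50 ± 0.10, a little under 0.5 before rounding. H19Δ1 was there at 0.00 and H19Δ2 at 0.50. Just inside the threshold was the region at the start of chromosome 6, at 0.55. The 56 probes from chr13:107026849-108112730 differed by 0.34 ± 0.14, with H19Δ1 at -0.07 and H19Δ2 at 0.27, and lay between the 2 low stretches of chromosome 13 named above. On chromosome 9, 18 probes (chr9:7042915-7220680) differed by 0.33 ± 0.16, at -0.08 and 0.25. On chromosome 2, 23 probes (chr2:34483892-34747299) differed by 0.16 ± 0.11, with H19Δ1 at 0.00. On chromosome 14, 32 probes (chr14:75122665-75395050) differed by 0.29 ± 0.12, with H19Δ2 alone apart at 0.28. The one shift of this size with more DNA in H19Δ1 was on chromosome 17, where 89 probes (chr17:89931431-91103831) differed by -0.16 ± 0.14, at 0.12 in H19Δ1 and -0.03 in H19Δ2.

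Summed over chromosomes, chromosome 12 was the one autosome that stood away from the rest. Its median difference was 0.16. The medians of the other 18 autosomes lay between -0.03 on chromosome 5 and 0.05 on chromosome 6, with an SD of 0.02 over chromosomes, and 16 of the 18 were within 0.02 of zero. With the probes of the region left out, the median of chromosome 12 was 0.09. The Cy3 medians lay within 0.01 of zero on every autosome.

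**Figure D5:**
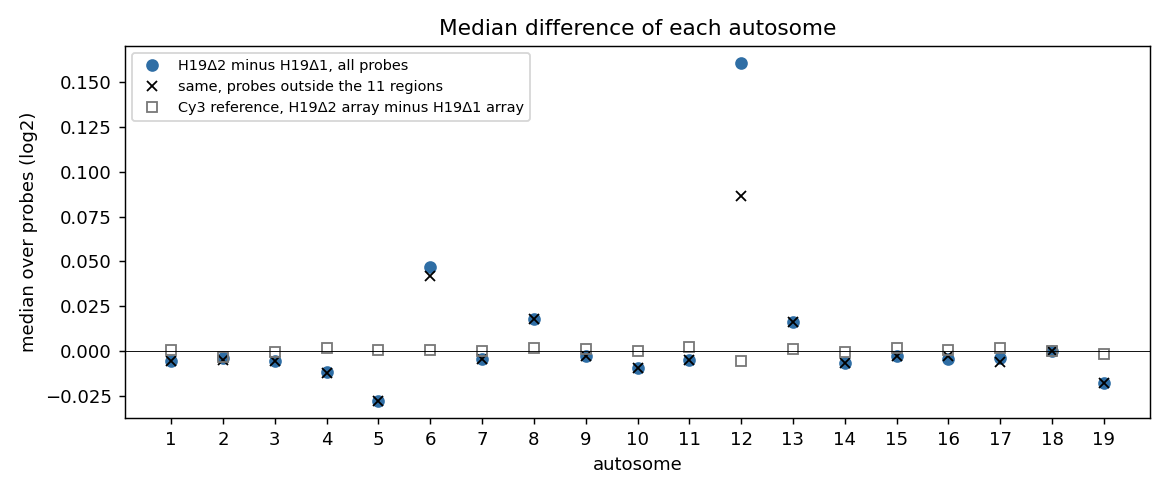
Median difference of each autosome. Filled circles are the median over all probes of H19Δ2 minus H19Δ1 on the log2 scale, crosses the same without the probes of the 11 regions, and open squares the median Cy3 difference between the arrays. Chromosome 12 lies at 0.16 with all probes and at 0.09 without its region, and all Cy3 medians lie within 0.01 of zero.

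Short stretches were called as well. Beside the 11 regions, 16 stretches of 3 probes each were called, and at 13 of them a single probe passed 0.5. Only 2 had all 3 probes past it, and 1 had 2 probes past it. At chr2:146813807-146832222 H19Δ1 was at -2.28 and H19Δ2 at -0.01, a measured difference of 2.27 ± 1.05. H19Δ1 had no Cy5 well above background at 1 of these probes. With that probe at its bound the DNA was at least about 2.96-fold more abundant in H19Δ2. At chr17:56300714-56328284 the lines stood at -0.21 and 0.51, a difference of 0.72 ± 0.05, so that this stretch also had its lines on opposite sides of AGH-OG-3. So did chr1:28359230-28395803, with H19Δ1 at 0.21 and H19Δ2 at -0.29. There 1 probe passed 0.5, but all 3 differed by between -0.57 and -0.45. The stretch with 2 probes past 0.5 was chr2:21179356-21236213, with H19Δ1 at 0.06 and H19Δ2 at -2.16. Its 2 low probes differed by -4.14 and -2.37, and at the first H19Δ2 had no Cy5 well above background. At 2 of the 16 the Cy3 signal differed by at least 0.5 in size between the arrays: by -1.06 on chromosome 5 (chr5:138918618-138974804) and by -0.97 on chromosome 14 (chr14:116282962-116297211). On chromosome 19 (chr19:42903509-42923387) it differed by 0.50, a little under 0.5 before rounding. Cy5 compared directly between the lines differed by -0.51, 0.10 and -0.04 at these stretches of chromosomes 5, 14 and 19. Of all called segments 18 had 3 probes in the difference between the lines and 26 in the Cy3 control, counts that are not like for like either.

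Probes with very large differences were few. Outside the 11 regions, 13 probes had measured differences of at least 2 in size, 9 lower in H19Δ1 and 4 lower in H19Δ2. At 7 of them the lower line had no Cy5 well above background, and with those set at their bound 11 of the 13 still passed 2. At 12 of the 13 the Cy3 difference was within 1 of zero, and the exception, on chromosome 14, had a Cy3 difference of -3.01. At 2 of the probes lower in H19Δ2 the other line was raised, as it was in the regions of chromosomes 3 and 9. The probe chr13:67875397-67875456 was at 0.72 in H19Δ1 and -4.70 in H19Δ2, where its Cy5 did not stand well above background. With that Cy5 at its bound, H19Δ1 was at least about 16.7-fold higher. The probe chr15:92406533-92406592 was at 0.97 in H19Δ1 and -3.90 in H19Δ2, 29.3-fold lower, with Cy5 well above background in both. Each of these 2 is 1 probe, without a neighbour that moved alike. Those of the 13 in chr2:21179356-21236213 and chr2:146813807-146832222 did have such a neighbour.

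What the lines share drops out of the difference, as the engineered deletion should. The 2 autosomal probes with a log2 ratio below -2 in both lines were neighbours on chromosome 7, the chromosome of *H19*. Without mm9 annotation they were not placed against *H19* itself. The probe chr7:149761403-149761462 was at -3.67 in H19Δ1 and -3.70 in H19Δ2, with a difference of -0.02. At the probe chr7:149768746-149768805 neither line had Cy5 well above background, so its values of -3.79 and -2.92 have no order. The probes on either side stood at -0.22 and -0.20 on the left and at 0.03 and 0.07 on the right. No difference between the lines was detectable in this loss with the single probe that was measured in both.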

How the data were processed

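The authors deposited Agilent Feature Extraction output of 2 SurePrint G3 Mouse CGH arrays, 1 per line, both on 1 slide and in 1 scan. The labels name version 10.10 and the file header 11.5.1.1. The deposited processed intensities of each dye had their background subtracted, a spatial trend removed and the dyes scaled by a linear factor; the deposited log10 ratio, also in the series matrix, is Cy5 over Cy3. Positions are on mm9. With no mm9 annotation used here, no gene was placed in a region.

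Control spots and 151 and 211 outlier spots were dropped, log2 ratios were taken from the deposited intensities, spots of a probe were averaged, and arrays were centred on the autosomal median (0.011 and 0.008). No loess or quantile step was used, since either can remove true copy number shifts. A dye effect common to both arrays cancels in the difference. Segments came from penalised least squares (penalty 2 times the noise variance times the log number of probes, at least 3 probes), tested on simulated data. The simulated noise was independent between probes and had its extremes cut off. Calls resting on a single outlying probe and long low shifts were therefore not tried in it. Where Cy5 was not well above background and lay under the lowest Cy5 well above it (56.6 and 53.5), it was set at that bound. The bound is approximate, since a probe can exceed it without standing well above background. Regions, limits and comparisons were chosen with earlier results of these data known. The rule for naming was called segments of at least 5 probes. It was applied after joining adjoining called segments, a step added after seeing the data, and chromosome 9 is named only through it. The alternatives were other signals, centrings, spot filters and segmentation settings, normexp with an offset of 50 among them. Python 3.11.15 with numpy 2.4.6, pandas 2.3.3, numba 0.67.0 and matplotlib 3.10.9 was used, and R 4.3.3 with limma 3.58.1. The number of arrays limits the precision.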

Additional observations from a re-analysis of the deposited data

Results flagged for a closer look

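In 7 regions the lines stood on opposite sides of the parental line AGH-OG-3. This difference between the lines was not tested, since there was 1 array per line. Ratios to AGH-OG-3 cannot tell a change in a line from one in the parental culture. H19Δ2 lay above and H19Δ1 below the parental line in 5 of the 7 regions. The difference, H19Δ2 minus H19Δ1, was 0.90 in the region starting at 112290454 on chromosome 2. It was 0.87 at 82064724 on chromosome 4 and 0.90 at 81801562 on chromosome 5. The region of chromosome 6 that starts at 55782881 had a difference of 0.95, and that of chromosome 17 at 65493402 had 0.94. H19Δ1 lay above and H19Δ2 below in the other pair, with a measured difference of -4.34 at 136446249 on chromosome 3 and of -4.61 at 100658274 on chromosome 9. With the 8 and 4 probes where H19Δ2 had no Cy5 well above background set at their bound, these were -3.70 and -4.22.

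Chromosome X was outside the comparison of autosomes. Its median difference was 0.12 over 8718 probes, with H19Δ1 at -0.31 and H19Δ2 at -0.19, and the same arrays differed by 0.01 in Cy3. Cut into 10 consecutive parts of like probe number, the chromosome had medians between 0.09 and 0.15, so the shift was spread over its length. It was not tested.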

How the results depend on the processing

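The 11 regions were recovered under 15 of 16 alternatives, each with at least 80% of its probes in called segments of the same sign, and none of 190 values of the regions and of chromosome 12 changed sign. Some of these alternatives could hardly alter the outcome. The deposited log ratio and the series matrix hold the same values, and centring had subtracted only 0.011 and 0.008. A threshold of 0.25 must keep any region called at 0.5. With a threshold of 0.75, 9 of the 11 regions were recovered, and the start of chromosome 6 and proximal chromosome 12 were lost. With normexp, whose offset lifts low signals, the difference was -2.12 on chromosome 3 (-2.14 over its last 9 probes) and -2.60 on chromosome 9, and the median of chromosome 12 was 0.18.

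The count of called segments, 34 in all, 21 with H19Δ2 higher and 13 lower, changed more. Cy5 without the reference gave 57, with 32 lower. Segments of at least 10 probes gave 21, with 7 lower, and those of at least 5 gave 8 lower. The segment median gave 21, with 13 higher and 8 lower. With at least 5 probes, 27 segments had that length and 22 regions remained after joining, and with at least 10 probes 17 regions remained. Of the called segments under these settings, 9 and 4 had 1 probe past 0.5. A penalty of 8 left 7 long low shifts of 11. Joining adjoining segments, chosen after seeing the data, turned 34 into 27. Cy5 without the reference gives no levels against AGH-OG-3, so regions of opposite levels were not counted there. No paired analysis was possible because there was 1 array per line. Neither an array left out nor a dye swap could be tried, so dye effects particular to 1 array and the slide position were not tested.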

Other observations

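On the autosomes 12 stretches, the 2 lost probes of chromosome 7 among them, had means away from zero alike in both lines. Of these 8 were lower and 4 higher than AGH-OG-3, 9 had 3 probes, and the longest had 6. Without the chromosome 7 stretch, which holds a probe with no Cy5 well above background in either line, their differences between the lines ran from -0.20 to 0.14. Those at chr5:100844795, chr6:47768770, chr6:115758846, chr11:78156807 and chr17:26680821 each had 1 of 3 probes past 0.5 over both lines. Their medians lay between -0.17 and -0.08, so each mean rested largely on 1 probe. One with all 3 probes past 0.5 was chr11:93833988-93853612, with a mean of 0.59 ± 0.08 over both lines.

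On the 949 autosomal probes that were printed in 5 spots each, the spots of a probe had a median SD of 0.08 in each line. Of the 12 such probes inside the 11 regions 8 passed a difference of 0.5, and of the 937 outside 1 did. This contrast follows from the choice of the regions by these same differences and is a description only. Most of the 12 probes lay in the chromosome 12 region.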
